A study of Mus musculus with 12 samples.

Results

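Regulatory T cells are T cells that restrain the responses of other immune cells, and 6 genes that mark them were followed here out of 561 genes on the NanoString Mouse Immunology panel. That assay tags each RNA with a colour-coded pair of probes and counts the tags, with no amplification step. The members were chosen by name: Foxp3, Ikzf2, Il2ra, Ctla4, Folr4 and Tnfrsf4. All 6 passed the filter on low counts. The 12 samples came from 12 mice that the labels number separately, 3 in each of 4 groups: spleen or the gut-draining mesenteric lymph nodes, each from untreated mice and from mice that received the antibiotic ampicillin by gavage when 3 weeks old. Tissues were taken at 6 weeks. All 4 groups, the controls included, shared the strain C57BL6 Exon 16 KO Hemophilia A, which lacks clotting factor VIII and models the bleeding disorder hemophilia A. The labels describe no mice gavaged with vehicle alone, so gavage and ampicillin cannot be told apart.

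Foxp3 is the transcription factor that defines regulatory T cells and holds their program in place. These cells depend on interleukin 2 made by other T cells, which they take up through a high-affinity receptor, and they restrain other cells in part by stripping the costimulatory ligands CD80 and CD86 from antigen-presenting cells through CTLA-4. In the gut and its draining nodes they are known for tolerance to food and to the resident bacteria. Apart from Foxp3, the members are not exclusive to regulatory T cells: Il2ra, Ctla4 and Tnfrsf4 are also switched on in activated conventional T cells. The samples were whole tissue, so fewer regulatory T cells and less RNA per cell cannot be told apart.

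The stretches just upstream of the start sites are shown for Foxp3, Folr4 and Tnfrsf4, because these 3 members fell together in the spleen after ampicillin. Each is the 250 bases before a start site, 5′ to 3′ on the gene's own strand, from RefSeq with assembly GRCm38.p6. Foxp3 has a pair of start sites there, at chrX:7579426-7579675 and chrX:7580233-7580482 on the + strand. The Folr4 window, under the current symbol Izumo1r, is chr9:14903768-14904017 on the - strand, and the Tnfrsf4 window is chr4:156013445-156013694 on the + strand. Capitals mark letters that matched any of 6 searched motifs on either strand.
Foxp3, first start site: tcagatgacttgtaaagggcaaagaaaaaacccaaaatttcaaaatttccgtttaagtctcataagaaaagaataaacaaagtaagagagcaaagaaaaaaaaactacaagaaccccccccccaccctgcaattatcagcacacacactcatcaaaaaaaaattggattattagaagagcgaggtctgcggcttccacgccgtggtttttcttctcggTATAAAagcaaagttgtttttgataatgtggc
Foxp3, second start site: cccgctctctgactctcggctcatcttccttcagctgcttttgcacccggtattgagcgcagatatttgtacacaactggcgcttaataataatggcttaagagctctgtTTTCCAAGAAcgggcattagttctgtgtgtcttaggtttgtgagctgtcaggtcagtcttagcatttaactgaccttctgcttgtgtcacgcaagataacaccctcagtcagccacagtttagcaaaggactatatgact
Folr4: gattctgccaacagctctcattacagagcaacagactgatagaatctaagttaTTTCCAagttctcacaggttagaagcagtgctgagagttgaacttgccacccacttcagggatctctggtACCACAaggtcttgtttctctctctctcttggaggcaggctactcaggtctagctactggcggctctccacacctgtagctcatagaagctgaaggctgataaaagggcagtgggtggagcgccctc
Tnfrsf4: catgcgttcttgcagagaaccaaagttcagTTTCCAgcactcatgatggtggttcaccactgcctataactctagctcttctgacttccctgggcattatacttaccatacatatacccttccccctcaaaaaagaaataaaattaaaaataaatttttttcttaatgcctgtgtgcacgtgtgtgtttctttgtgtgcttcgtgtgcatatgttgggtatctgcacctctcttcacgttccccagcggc
The motifs were the STAT letters TTCNNNGAA, the forkhead letters TGTTTAC, the AP-1 letters TGANTCA, the RUNX letters TGTGGT, the NFAT letters TGGAAA and the TATA box letters TATAAA. The NFAT letters, which belong to a factor activated by T cell receptor signals, lay in the second Foxp3 window, in the Folr4 window and in the Tnfrsf4 window, and also in that of Ctla4. They are common, found in 18.6% of 32851 windows of this length. The second Foxp3 window also held the STAT letters from -139 to -131, overlapping the NFAT letters, and STAT factors carry interleukin 2 signals. The STAT letters were found in 7.02% of all windows. The first Foxp3 window held a TATA box from -32 to -27, found in 12.4% of windows, and the Folr4 window held the RUNX letters, found in 14% of windows. The AP-1 letters (6.75% of windows) and the forkhead letters (3.17%) lay in none of the members' windows, and the Il2ra window held none of the 6 motifs. Sequences were found for 5 of the 6 members. These matches describe letters, not bound sites.

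Levels are given as scaled counts, the count divided by a factor from 14 housekeeping genes of the same sample. They can be compared between samples for one gene, not between genes, because each probe pair has its own efficiency. The raw counts of the members ran from 35 to 693, and the lowest carries a counting error of 16.9%. Samples held 396950 to 738489 counts in all. One feature of the samples bears on every spleen result. Ampicillin spleens 2 and 3 stood apart from spleen 1, with summed counts of 4 erythroid genes of 7491 and 5671 against 809.7 in ampicillin spleen 1 and 746.3 to 1568 in control spleens. The 4 erythroid genes were Tfrc, Tal1, Abcb10 and Icam4. Their median log2 change in ampicillin against control spleens was 2.14, and that of all genes tested was -0.17. In the same spleens 2 and 3 the summed counts of 14 T cell genes were 7560 and 6978, against 10721 in ampicillin spleen 1 and 10987 to 12263 in control spleens. The T cell genes summed to at least 6978 scaled counts in every sample. Among them Cd3d, Cd3e and Cd247 stood at 785.5, 519.0 and 248.3 or more in every sample of both tissues. The sum does not show that each of the 14 genes was present, and Cd28 was as low as 16.6 in ampicillin spleen 3.

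All 6 members kept the same order of group means, highest in control nodes, then ampicillin nodes, then control spleen, and lowest in ampicillin spleen. The step between nodes and spleen was wider than the spread between samples for every member, since the lowest node sample lay above the highest spleen sample of the same treatment. The steps between treatments within a tissue were narrower, and for several members the groups overlapped.

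**Figure D1:**
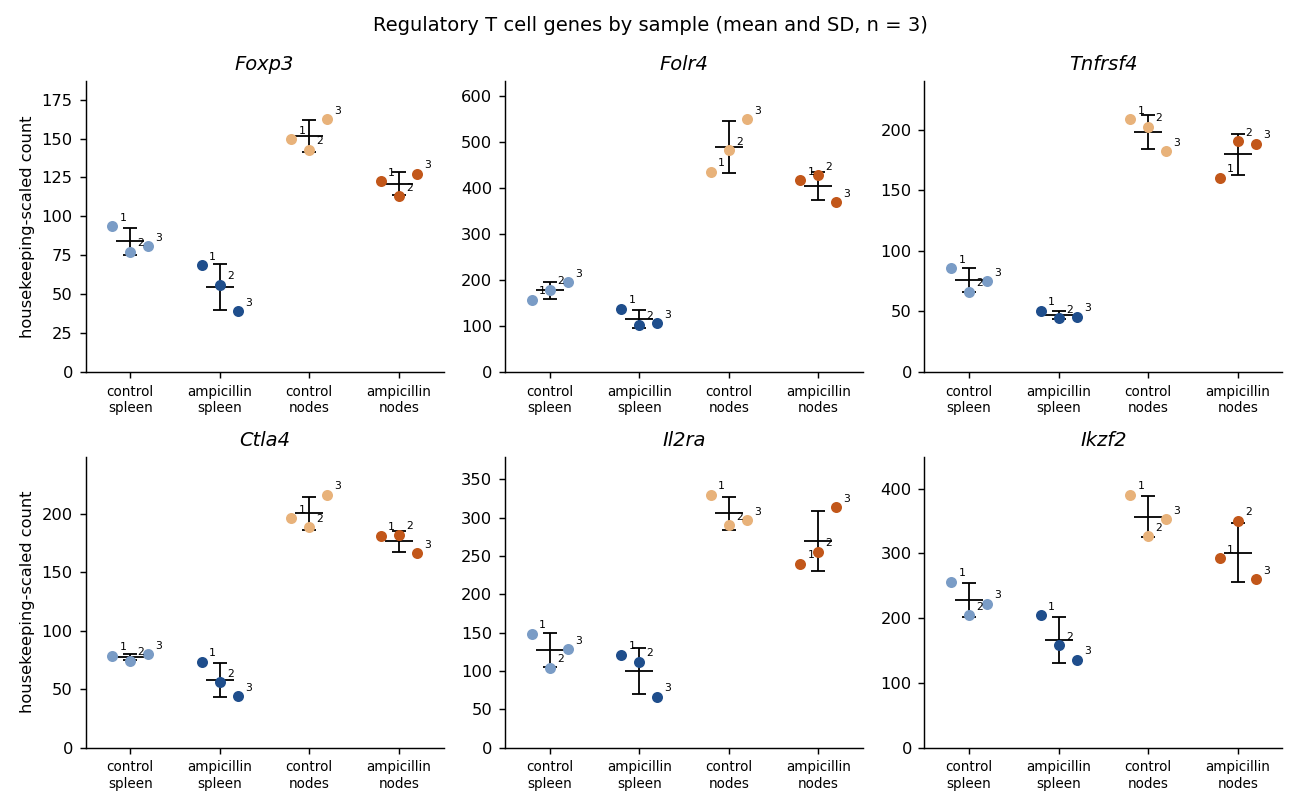
Housekeeping-scaled counts of the 6 members in each of the 12 samples, with 1 panel per member, numbered points for samples and black lines for the mean and SD of 3 samples. Nodes lay above spleens for every member, and the ampicillin spleens of Foxp3, Folr4, Tnfrsf4 and Ctla4 lay below all 3 control spleens.

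The first comparison asked how the members stood in the spleen after ampicillin. Foxp3, Folr4 and Tnfrsf4 fell, to 0.65, 0.66 and 0.62 of their control level, and Ctla4, Ikzf2 and Il2ra lay lower without passing the test. That is 3 of 6 members called lower, where 14.6% of the 445 genes tested were called lower. All 6 members lay below 0, as did 77.8% of all genes tested. The members' median log2 change was -0.53, and the median over all genes tested was -0.17.

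Foxp3 stood at 93.8, 77.3 and 80.9 scaled counts in control spleens 1, 2 and 3 and at 68.5, 56.0 and 39.0 in ampicillin spleens 1, 2 and 3. Every ampicillin spleen lay below every control spleen, and spleen 3 was the lowest. The means were 84.0 ± 8.71 and 54.5 ± 14.8 (SD, n = 3 each), a log2 change of -0.63 (SE 0.18, adjusted p = 0.0376, edgeR quasi-likelihood test). The spread among ampicillin spleens, 27.1% of the mean, was wider than the counting error of 13.6%, while in control spleens the spread of 10.4% was close to the counting error of 10.3%.

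Ikzf2 encodes Helios, a zinc finger factor found in many regulatory T cells, above all those made in the thymus. It stood at 256.1, 204.5 and 222.1 scaled counts in control spleens and at 204.6, 157.9 and 136.2 in ampicillin spleens. Ampicillin spleen 1 reached just above the lowest control spleen, so the groups overlapped by a narrow margin. The log2 change was -0.45 (SE 0.16, adjusted p = 0.0708, edgeR).

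Il2ra encodes CD25, the chain that gives the interleukin 2 receptor its high affinity. Its scaled counts were 148.7, 104.5 and 128.6 in control spleens and 121.5, 112.1 and 66.4 in ampicillin spleens. Only spleen 3 lay below all controls, and the groups overlapped. The log2 change of -0.36 had a 95% interval from -0.80 to 0.09 (adjusted p = 0.236, edgeR), so a fall as large as that of Foxp3 and no change both lay inside it.

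Ctla4 encodes the inhibitory receptor that competes with CD28 for CD80 and CD86. It was even among control spleens, at 78.7, 74.5 and 79.9 scaled counts, and uneven among ampicillin spleens, at 73.6, 56.0 and 44.0. Spleen 1 lay just under the lowest control. The log2 change was -0.42 (SE 0.17, adjusted p = 0.0951, edgeR).

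Folr4 encodes folate receptor 4, a surface protein of regulatory T cells in mice that is also found on other T cells. It stood at 157.5, 179.1 and 194.9 scaled counts in control spleens and at 137.8, 103.2 and 106.3 in ampicillin spleens. The groups did not overlap. The log2 change was -0.60 (SE 0.14, adjusted p = 0.0198, edgeR).

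Tnfrsf4 encodes OX40, a costimulatory receptor of the tumor necrosis factor receptor family. It stood at 85.9, 66.4 and 75.0 scaled counts in control spleens and at 50.5, 44.6 and 45.7 in ampicillin spleens. All 3 ampicillin spleens were low and close together, spleen 1 included. Their spread of 6.72% of the mean was below the counting error of 14.5%. The log2 change of -0.69 (SE 0.15, adjusted p = 0.0169, edgeR) was the lowest of the 6.

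Groups that did not overlap, with ampicillin lower, were found for 4 of 6 members (Foxp3, Folr4, Tnfrsf4 and Ctla4), against 31.7% of all genes tested. With spleens 2 and 3 left out, which leaves 1 ampicillin spleen whose spread is taken from the other groups, 0 members were called (6 of 445 genes in all). The values were then -0.30 for Foxp3, -0.36 for Folr4 and -0.59 for Tnfrsf4. The part of the erythroid and T cell genes of spleens 2 and 3 in these falls was not tested.

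The calls rested on few samples. With 1 of the 12 samples left out at a time, Tnfrsf4 stayed called in 9 of 12 cases, Folr4 in 7 and Foxp3 in 4. Of 13 other alternatives, 8 ended the call of Foxp3, 5 that of Folr4 and 3 that of Tnfrsf4. Leaving out ampicillin spleen 2, ampicillin spleen 3 or control spleen 1 left a count of 0. It was 1 without control spleen 2 or control spleen 3, 2 without any 1 of the control nodes, and 5 without ampicillin spleen 1, when Ctla4 (-0.66) and Ikzf2 (-0.64) were called too. DESeq2 with housekeeping scaling gave 4 calls, with Ikzf2 added (-0.45, adjusted p = 0.0458). Scaling by trimmed means or by the median gene left 1 call, Tnfrsf4 at -0.52 (adjusted p = 0.0379, edgeR, trimmed means).

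**Figure D2:**
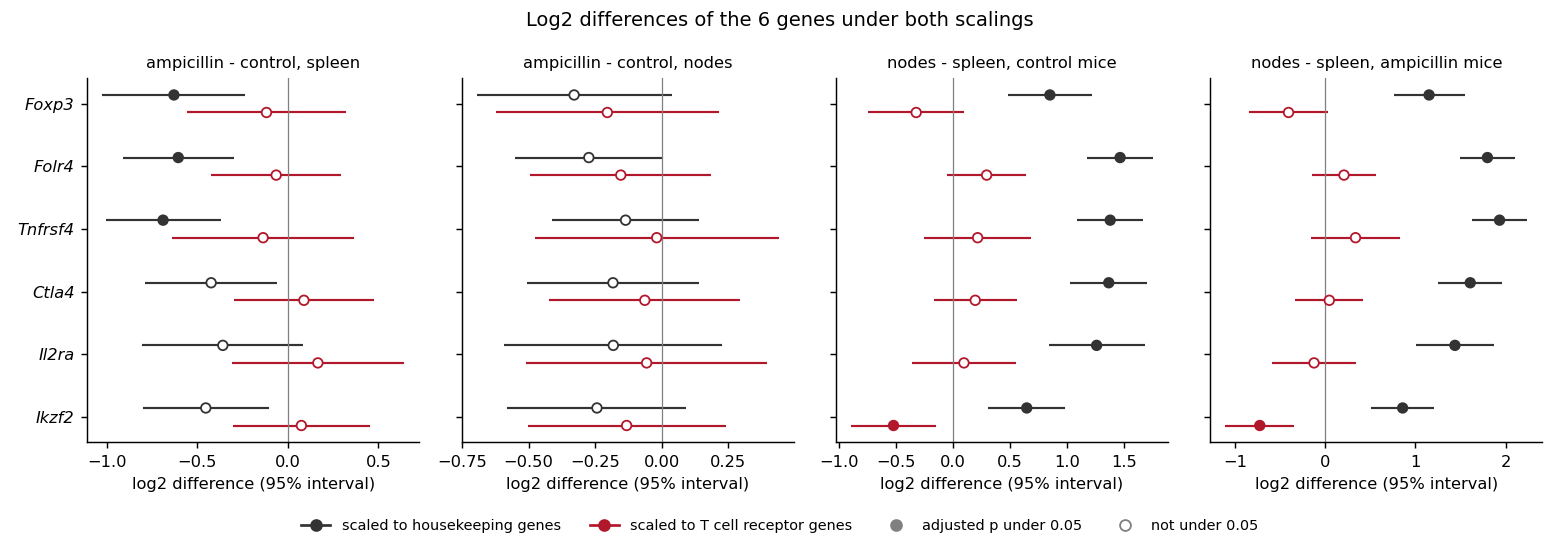
Log2 changes of the 6 members with 95% intervals in 4 comparisons, scaled to housekeeping genes and to T cell receptor genes; filled points passed the test. In spleen all 6 housekeeping-scaled values lay below 0, and relative to T cell receptor genes they lay between -0.14 and 0.17.

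The second question was whether the members moved apart from T cells as a whole. Each sample's counts were therefore also scaled to the geometric mean of Cd3d, Cd3e and Cd247, 3 signalling chains of the T cell receptor complex. In the spleen after ampicillin Cd3d and Cd247 fell by 0.61 and 0.60 on the log2 scale (adjusted p = 0.0376 and 0.0368, edgeR), Cd4 fell by 0.42 (adjusted p = 0.0251) and Cd3e stood at -0.31 (adjusted p = 0.209). Of the 14 T cell genes 7 were called lower, against 14.6% of all genes tested. Their median log2 change was -0.43, and that of all genes was -0.17. Relative to the T cell receptor genes, 0 of 6 members were called in the spleen by edgeR, and 0 of 6 had an unadjusted p under 0.05 (40.9% of all genes had). By this scaling 13.3% of all genes tested were called, all of them higher and 0 lower, and the median over all genes was 0.39. The members' changes ran from -0.14 (Tnfrsf4) to 0.17 (Il2ra), with adjusted p from 0.576 to 0.757 (edgeR). The intervals were wide: for Foxp3 the log2 change of -0.12 had a 95% interval from -0.56 to 0.32, which leaves room for a fall or a rise of that size relative to T cells.

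Per 1000 counts of the T cell receptor genes, Foxp3 stood at 112.5, 96.3 and 83.6 in control spleens and at 81.7, 106.8 and 83.7 in ampicillin spleens. Control and ampicillin spleens overlapped, and the highest ampicillin value was in spleen 2, whose T cell genes were low. Ctla4 ran from 82.6 to 94.4 in control spleens and from 87.8 to 106.8 in ampicillin spleens. Tnfrsf4 stood at 103.0, 82.7 and 77.5 in control spleens and at 60.2, 85.0 and 98.0 in ampicillin spleens. Ampicillin spleen 1, whose T cell genes were near those of controls, was thus the lowest of all 12 samples for Tnfrsf4 by this ratio, while spleens 2 and 3 lay within the control range. With spleens 2 and 3 left out, the log2 change of Tnfrsf4 relative to the T cell receptor genes was -0.54 and that of Foxp3 -0.31, and 0 members were called.

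**Figure D3:**
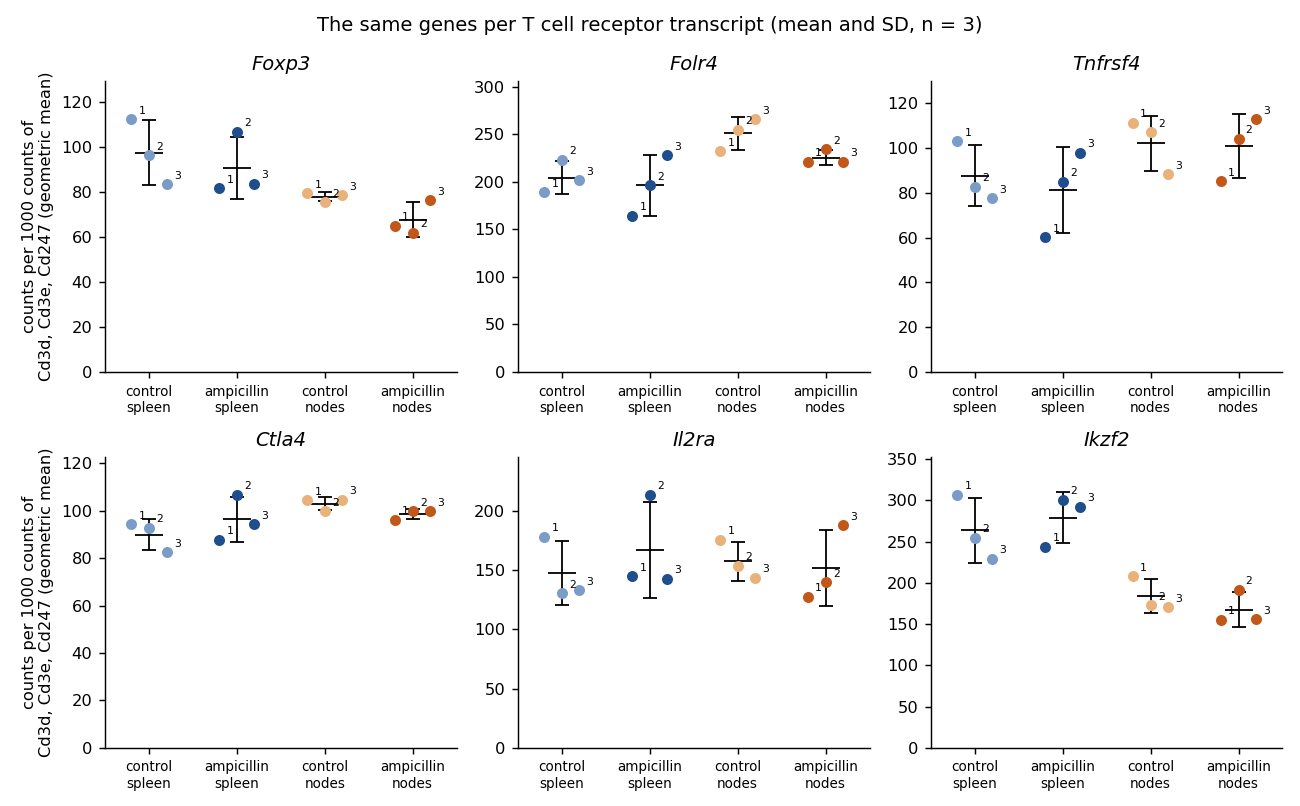
Counts of each member per 1000 counts of the T cell receptor genes (geometric mean of Cd3d, Cd3e and Cd247) in the 12 samples, with numbered points for samples and black lines for the mean and SD of 3. Control and ampicillin spleens overlapped for all 6 members. Foxp3 and Ikzf2 were lower in nodes than in spleens of the same treatment, without overlap. So were 83.8% of all genes tested in control mice and 87.9% in ampicillin mice. Folr4 and Ctla4 were higher in control nodes than in control spleens, without overlap, and the share of all genes in that direction is not given here.

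The same contrast lay in how closely the members followed the T cell receptor genes from sample to sample. After each group's mean was subtracted from the log2 scaled counts, Pearson's r with the T cell receptor genes over the 12 samples was 0.93 for Ctla4, 0.81 for Folr4, 0.73 for Foxp3, 0.70 for Ikzf2, 0.52 for Il2ra and 0.21 for Tnfrsf4. These are descriptions over samples whose values share a scaling factor, and the T cell receptor genes were spread most widely among ampicillin spleens, at a geometric mean of 838.5, 524.6 and 466.0 scaled counts in spleens 1, 2 and 3. Among the members, Foxp3 went most closely with Il2ra (0.88) and Ctla4 (0.88), and Folr4 and Tnfrsf4 stood at -0.19.

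**Figure D4:**
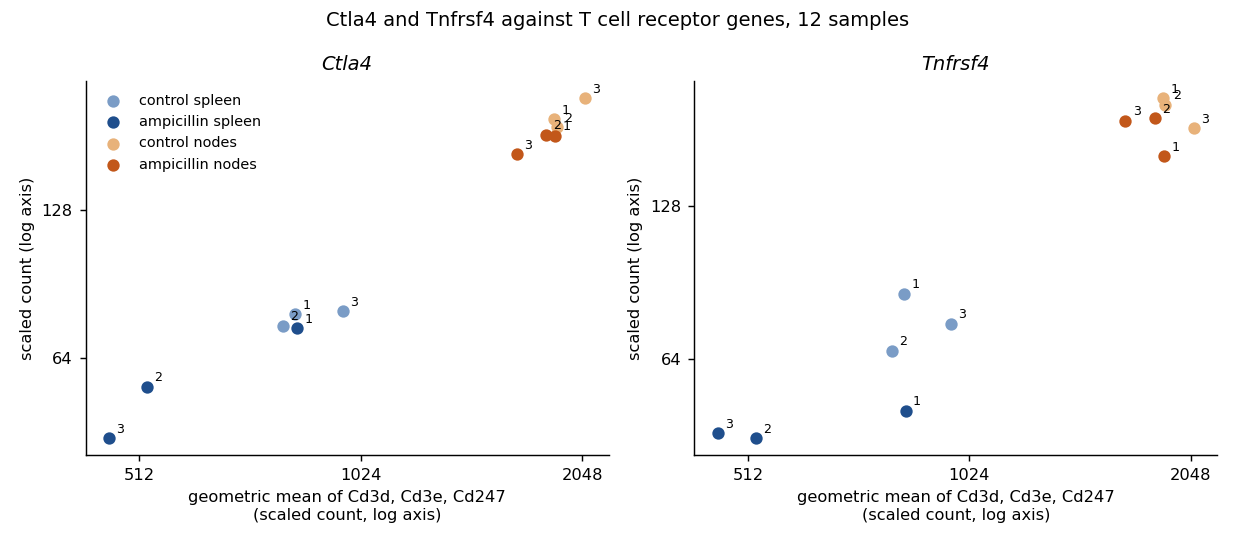
Scaled counts of Ctla4 and Tnfrsf4 against the geometric mean of Cd3d, Cd3e and Cd247 in the 12 samples, on log axes, with colours for the 4 groups. Ctla4 went along with the T cell receptor genes among the ampicillin spleens, from 44.0 to 73.6 scaled counts, while Tnfrsf4 stayed between 44.6 and 50.5.

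In the mesenteric lymph nodes 0 of 6 members were called after ampicillin, and only 2 of 445 genes (0.449%) were called at all, while 88 genes (19.8%) had an unadjusted p under 0.05, none of them members. All 6 members lay below 0 (60.2% of all genes), from -0.33 (Foxp3) to -0.14 (Tnfrsf4) on the log2 scale, with adjusted p from 0.247 to 0.619 (edgeR). Their median was -0.21 and that of all genes tested -0.05. Relative to the T cell receptor genes the members ran from -0.20 to -0.02, with 0 members and 0 of 445 genes called by edgeR and 30 genes (6.74%) at an unadjusted p under 0.05, none of them members.

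Foxp3 stood at 149.4, 142.9 and 162.6 scaled counts in control nodes and at 122.7, 113.1 and 127.4 in ampicillin nodes, so the groups did not overlap. Its 95% interval ran from -0.69 to 0.04 (adjusted p = 0.285, edgeR). Folr4 stood at 435.5, 481.5 and 549.6 in control nodes and at 416.3, 427.9 and 369.3 in ampicillin nodes, again without overlap (log2 change -0.27, SE 0.13, adjusted p = 0.247). Ctla4 stood at 196.3, 188.6 and 216.5 against 181.4, 182.4 and 166.5, without overlap too (log2 change -0.18). Groups without overlap and lower after ampicillin were thus found for 3 of 6 members, against 20.7% of all genes tested.

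The other 3 members overlapped between control and ampicillin nodes. Tnfrsf4 ran from 182.4 to 209.0 scaled counts in control nodes and from 160.5 to 190.5 in ampicillin nodes. Il2ra ran from 290.6 to 330.1 and from 240.1 to 313.4, and Ikzf2 from 326.9 to 390.6 and from 260.1 to 350.5. Of the 14 T cell genes 0 were called, with a median log2 change of -0.18, and their summed counts ran from 22752 to 24446 in control nodes and from 19497 to 21365 in ampicillin nodes. The part of the T cell level in the members' values was not tested.

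The difference between the effect in nodes and the effect in spleen was tested directly, and 0 of 6 members and 0 of 445 genes were called by edgeR, with 49 genes (11%) at an unadjusted p under 0.05. All 6 differences were above 0 (73% of all genes), from 0.18 to 0.55 on the log2 scale, where the median over all genes was 0.13. Tnfrsf4 was the only member with an unadjusted p under 0.05, with a difference of 0.55 (SE 0.19, unadjusted p = 0.0139, adjusted p = 0.311, edgeR). The fall of Foxp3, Folr4 and Tnfrsf4 was therefore not shown to be particular to the spleen. With spleens 2 and 3 left out, the differences of Foxp3, Ctla4, Il2ra and Ikzf2 turned to -0.03, -0.11, -0.11 and -0.09.

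The members differed more between the tissues than between the treatments. In control mice all 6 members were higher in nodes than in spleen, where 29.7% of the genes tested were called higher and 35.3% had groups that did not overlap in this direction. Folr4 was 2.77-fold higher (log2 change 1.47, SE 0.13, adjusted p = 8.84e-07, edgeR), Tnfrsf4 2.60-fold, Ctla4 2.58-fold and Il2ra 2.40-fold. Foxp3 was 1.80-fold higher (adjusted p = 0.000676) and Ikzf2 1.57-fold (adjusted p = 0.00259). Among T cell genes 14 of 14 were called higher, Cd3e 2.45-fold and Cd4 1.93-fold. B cell genes went the other way, with 8 of 8 called lower in nodes, where 34.4% of the genes tested were called lower.

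In ampicillin mice all 6 members were again higher in nodes, where 33.5% of the genes tested were called higher and 32.8% had groups that did not overlap in this direction. The folds were 3.82 for Tnfrsf4 (adjusted p = 1.41e-07, edgeR), 3.48 for Folr4, 3.05 for Ctla4, 2.71 for Il2ra, 2.22 for Foxp3 and 1.81 for Ikzf2. These folds use the same ampicillin spleens as the first comparison. The order of the members was close to that in control mice, with Foxp3 and Ikzf2 at the low end in both.

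Relative to the T cell receptor genes, Ikzf2 was lower in nodes than in spleen, the opposite of its direction by housekeeping scaling. Its ratio per 1000 counts was 307.0, 254.8 and 229.6 in control spleens and 207.9, 172.8 and 170.8 in control nodes. The groups did not overlap, as was the case for 83.8% of all genes in this direction. The log2 change was -0.52 (SE 0.17, adjusted p = 0.0117, edgeR), with a 95% interval from -0.89 to -0.15. It was the only member called in this comparison, in which 81.1% of all genes tested were called lower and the median over all genes was -1.20. By housekeeping scaling the median over all genes was -0.03. The call was lost without control spleen 1 (-0.40, adjusted p = 0.0758) and with Cd4 as the reference (-0.30, adjusted p = 0.0578).

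In ampicillin mice the ratio of Ikzf2 was 244.0, 301.0 and 292.2 in spleens and 155.2, 191.7 and 155.8 in nodes, again without overlap (87.9% of all genes in this direction). The log2 change was -0.73 (SE 0.18, adjusted p = 0.00126, edgeR), where 87.4% of genes were called lower. It passed the test without any 1 of the 12 samples, and with Cd4 as the reference it was -0.32 (adjusted p = 0.0452, edgeR). Foxp3 stood at -0.32 in control mice (adjusted p = 0.138, edgeR) and at -0.41 in ampicillin mice (adjusted p = 0.0725). Its ratios in nodes lay below those in spleens without overlap in both sets of mice, as for 83.8% and 87.9% of all genes. The other 4 members ran from 0.10 to 0.30 in control mice and from -0.13 to 0.33 in ampicillin mice, with none called. In control mice the ratio of Folr4 ran from 188.8 to 223.1 in spleens and from 231.9 to 266.0 in nodes. That of Ctla4 ran from 82.6 to 94.4 in spleens and from 99.7 to 104.8 in nodes. Both lay higher in nodes without overlap, while 83.8% of all genes lay lower without overlap. The share of all genes that lay higher without overlap is not given here. The value of Foxp3 moved with the reference. With Cd3e it was -0.45 in control mice (adjusted p = 0.0268, edgeR) and -0.35 in ampicillin mice, and with Cd4 it was -0.09 and -0.022. Differences between members were not tested. Cd4, which marks helper and most regulatory T cells, itself stood at -0.22 in control mice (adjusted p = 0.155) and fell by 0.40 in ampicillin mice (adjusted p = 0.0149, edgeR) by the T cell receptor scaling. With Cd4 as the reference, Folr4, Tnfrsf4 and Ctla4 were called higher in nodes in both sets of mice. The share of all genes called with that reference is not given here, so these calls cannot be set against it.

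Companion genes of the same biology were read beside the members. Of 13 other tested regulatory T cell genes 2 were called lower in the spleen after ampicillin, near the 14.6% of all genes. These were Icos, a costimulatory receptor, at -0.57 (adjusted p = 0.0169, edgeR), and Gata3, a transcription factor of type 2 helper cells that some regulatory T cells also use, at -0.51 (adjusted p = 0.0247). The list's median of -0.18 lay at that of all genes tested. Icos stood at 237.8, 228.2 and 222.1 scaled counts in control spleens and at 178.0, 151.5 and 135.4 in ampicillin spleens. Relative to the T cell receptor genes Icos stood at -0.02 and Gata3 at 0.04, neither called, and 12 of 13 genes of the list lay above 0. The list's median of 0.39 was the same as that of all genes tested. By that scaling Il1rl1, the receptor of interleukin 33, was called higher at 1.90 (adjusted p = 0.0318, edgeR), as were 13.3% of all genes. With housekeeping scaling it was not called (adjusted p = 0.057). Il1rl1 stood at 26.2, 54.5 and 29.2 scaled counts in control spleens and at 34.2, 94.2 and 125.4 in ampicillin spleens, high in the same spleens 2 and 3 as the erythroid genes.

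The interleukin 2 pathway carries the survival signal of regulatory T cells from the receptor through Jak kinases to STAT5. In the spleen after ampicillin 0 of 9 tested members were called and 9 of 9 lay below 0, as did 77.8% of all genes tested. Jak3 stood at -0.41 (adjusted p = 0.0655, edgeR) and Il2rb, the shared beta chain of the receptor, at -0.27 (adjusted p = 0.0962). Relative to the T cell receptor genes 9 of 9 lay above 0, but the list's median of 0.31 lay below the 0.39 of all genes tested. Jak1, a kinase of the same receptor, was called higher at 0.54 (adjusted p = 0.0366, edgeR), as were 13.3% of all genes. In nodes after ampicillin 0 of 9 were called. Jak3 stood at -0.57 and the transcription factor gene Stat5a at -0.34 (adjusted p = 0.0942 each, edgeR). Stat5a was even within groups, at 412.1, 419.4 and 413.2 scaled counts in control nodes and at 311.9, 332.1 and 342.0 in ampicillin nodes. The groups did not overlap, with ampicillin lower, as was the case for 20.7% of all genes tested.

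Of the ligands and rival receptors, Icosl, the ligand of ICOS, was the only one of 4 tested genes called in the spleen after ampicillin (-0.42, adjusted p = 0.0368, edgeR). In nodes after ampicillin 0 of 4 were called, with Icosl at -0.26 and Cd80 at -0.19. Of the 5 tested regulators of effector T cells, Gata3 alone was called in the spleen. In nodes after ampicillin 0 of 5 were called, with Gata3 at -0.29. Prdm1, which encodes Blimp-1, a repressor in effector regulatory T cells and plasma cells, had the smallest p of the other regulatory T cell genes in nodes (-0.52, adjusted p = 0.189). For the difference between tissues in the ampicillin effect none of these companion genes was called, and Icos had the smallest p at 0.34 (adjusted p = 0.435, edgeR).

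Between tissues of control mice 5 of 13 other regulatory T cell genes were called higher in nodes, where 29.7% of all genes were, and 3 lower, where 34.4% of all genes were. Ikzf4, which encodes Eos, a partner of Foxp3, was 1.30 higher on the log2 scale and Icos 0.83 higher, while Entpd1, which encodes the ectoenzyme CD39 and is also made by B cells, fell by 1.09. Of 9 interleukin 2 pathway genes 8 were called higher, among them Socs1 (1.28), Socs3 (0.90) and Stat5a (0.58). Cd28, the activating receptor that rivals CTLA-4, was higher by 0.97, while its ligands Cd86 and Cd80, genes of antigen-presenting cells, stood at -0.77 and -0.75, both called lower. Gata3 was higher by 0.88. In ampicillin mice Icos (1.18), Gata3 (1.10), Socs1 (1.29) and Cd28 (1.27) were called higher in nodes, as were 33.5% of all genes. Entpd1 (-0.96), Cd86 (-0.61) and Cd80 (-0.79) were called lower, as were 29.7% of all genes.

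**Figure D5:**
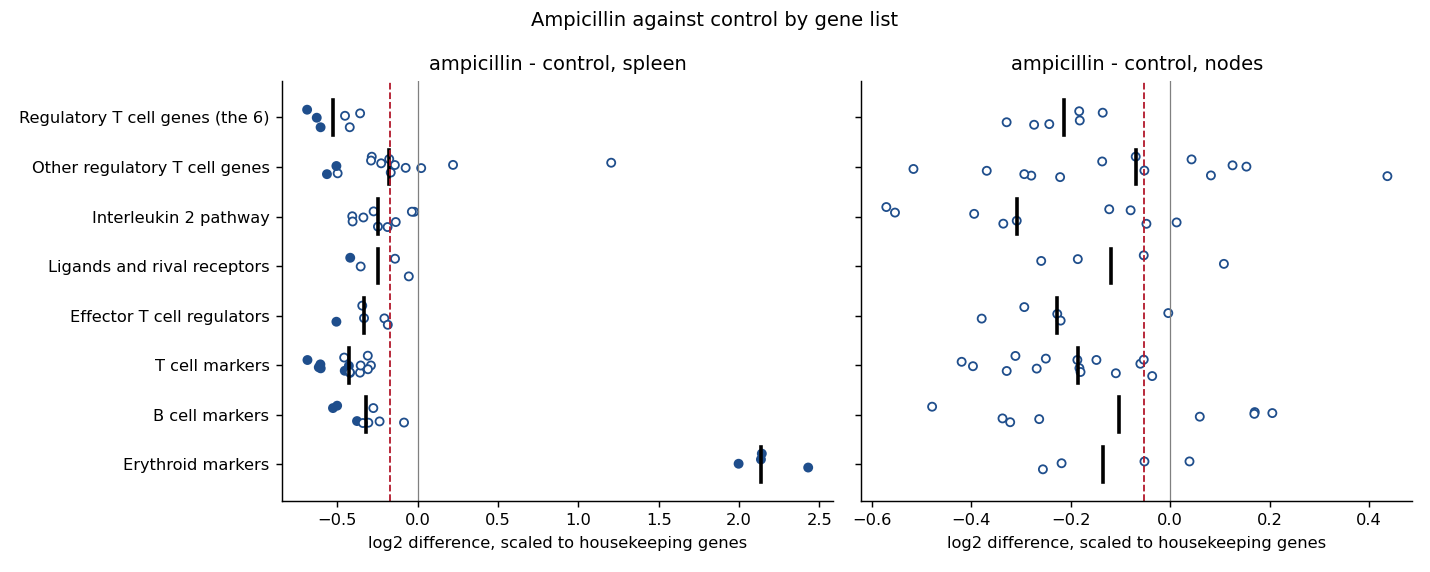
Log2 changes after ampicillin of the tested genes of the members' list, of 4 companion lists and of T cell, B cell and erythroid markers, 1 point per gene, in spleen and in nodes; filled points passed the test, a bar marks each list's median and a dashed line the median of all 445 genes tested. In spleen after ampicillin the members' median was -0.53 and that of the other regulatory T cell genes -0.18.

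The genes whose pattern was most like that of the members were mostly genes of T cells in general. Over the log2 scaled counts of the 12 samples, Pearson's r with Foxp3 was highest for Cd6 (0.98), Cd5 (0.98), Cd8a (0.98), Icos (0.97) and Gata3 (0.97). The samples form separate clusters of nodes and spleens, so these values describe mainly the step between tissues. After each group's mean was subtracted, the highest were Cd8a (0.91), Cd7 (0.89) and Cd5 (0.85). Cd8a marks cytotoxic T cells, which as a rule lack Foxp3. Folr4 was most like Lck and Cd4 (0.99 each), Ctla4 like Cd3e and Tcf7 (0.99 each), and Tnfrsf4 like Psmb10 (0.99), a subunit of the immunoproteasome, and Cd4 (0.98). Il2ra was most like Cd8a (0.98) and Ccr7 (0.97), the receptor that brings naive T cells into nodes, and Ikzf2 like Icos and Cd6 (0.97 each).

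Markers of other cells that could carry the members' RNA were read in the same samples. The summed counts of 4 genes of activated T cells, which also make Il2ra, Ctla4 and Tnfrsf4, ran from 152.7 to 170.5 in control spleens and from 143.7 to 213.1 in ampicillin spleens. Only 2 of these genes were tested, and 0 were called. They went opposite ways: mean scaled counts in control and ampicillin spleens were 64.6 and 86.6 for Cd69, and 77.2 and 71.0 for Cd40lg. Relative to the T cell receptor genes 1 of the 2 was called higher, where 13.3% of all genes were. B cell genes were called lower in 3 of 8 cases in the spleen after ampicillin, where 14.6% of all genes were called lower. All 8 lay below 0, as did 77.8% of all genes. Their summed counts ran from 27651 to 29034 in control spleens and from 21720 to 25672 in ampicillin spleens. Macrophage genes were called in 0 of 6 cases, natural killer cell genes lower in 1 of 3 and neutrophil genes in 0 of 4. The lowest count was 1 in every sample, so a value above 0 does not show that a marker was present. The part of these cells in the members' values was not tested.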

How the data were processed

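The panel was run on 12 samples from 12 mice in 4 groups of 3. Tissues went into RNAlater and RNA was purified with the RNeasy Plus kit, per the labels' protocols. The submitters' design text names scaling to 14 housekeeping genes in nSolver, a fold over 1.25 and a level of 0.05. The deposited table nevertheless held whole-number counts with no such scaling: totals ran from 396950 to 738489, the lowest count was 1, and the geometric mean of the housekeeping genes differed by 1.65-fold between samples (912.4 to 1501). They were treated as unnormalized counts. A further table had 12 columns whose names matched no sample, so it was left aside, and no control probe background was subtracted.

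Counts were scaled by the geometric mean of 14 housekeeping genes, which were named from knowledge of the panel, since the design text gives only their number. Of the 547 other genes, 102 averaged under 20 scaled counts and were left out, and 445 were tested. The test was edgeR 4.0.16 (quasi-likelihood, R 4.3.3), with 4 group means over 12 samples, 8 residual degrees of freedom and p-values adjusted by Benjamini-Hochberg over all 445 genes of a contrast. Calls were made below an adjusted p of 0.05. SE and p rest on a spread shared by the 4 groups. The fit relative to T cell receptor genes used the geometric mean of Cd3d, Cd3e and Cd247 in place of the housekeeping genes; these are 3 of 4 genes listed for it, and they stay among the genes tested. Its comparison of tissues in ampicillin mice was added after the data were seen. The members, gene lists and tests were chosen with earlier results of these data known. Named were the members, the T cell reference genes, from each companion list the called genes (at most the 3 of smallest p per contrast) or else its 2 of smallest p, and the genes most like each member by Pearson's r. Relative changes of Icos and Gata3, the per-sample values of Icos and Stat5a, and the erythroid genes are given beside these, chosen after their values were seen. Folr4 is the table's name for Izumo1r. The test was checked on simulated data. Alternatives were other scalings, filters, tools (limma 3.58.1, DESeq2 1.42.0, the methods' test on log2 values), reference genes, a replicate block and samples left out. Some genes that the naming rule covers are not reported here.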

Additional observations from a re-analysis of the deposited data

How the results depend on the processing

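With 3 samples a group and member counts as low as 35, small changes could go undetected. A 95% interval that spans 0 does not show that a gene was unchanged. The 3 calls in the spleen after ampicillin became 4 with DESeq2 and housekeeping scaling, 1 with trimmed mean scaling, 1 with scaling to the median gene, 0 with only the spleens in the fit, 0 by the methods' test after Benjamini-Hochberg adjustment and 0 with ampicillin spleens 2 and 3 left out (chosen after seeing the data), and ran from 0 to 5 with 1 sample left out at a time; the cause was not tested. All 6 members stayed below 0 there, and all 6 stayed higher in nodes than in spleen, under every alternative run with housekeeping or other whole-panel scaling. In nodes after ampicillin the count went from 0 to 1 by the methods' test, and for nodes against spleen in ampicillin mice from 6 to 3 by that test after adjustment. Relative to T cell genes, the 1 call between tissues in control mice became 2 with Cd3e, 3 with Cd4 and 2 with a wider list of 14 T cell genes as reference, and 0 to 2 with 1 sample left out; in ampicillin mice the 1 call became 4 with Cd4 and 3 with the wider list, and 1 to 2 with 1 sample left out.

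Values that changed sign were small, and none was called before or after. In the spleen relative to T cell genes they were Ctla4 (-0.11), Il2ra (-0.030) and Ikzf2 (-0.12) with Cd3e, Ctla4 (-0.015) and Ikzf2 (-0.038) with Cd4, and Ctla4 (-0.035), Il2ra (-0.024) and Ikzf2 (-0.11) without ampicillin spleens 2 and 3. In nodes relative to T cell genes they were Tnfrsf4 with Cd4 (0.040), and Tnfrsf4 (0.073), Ctla4 (0.028) and Il2ra (0.033) with the wider list. Between tissues, Il2ra stood at -0.025 with Cd3e in control mice, and at 0.26 with Cd4 and 0.11 with the wider list in ampicillin mice. In the difference of effects without ampicillin spleens 2 and 3, Foxp3 stood at -0.033, Ctla4 at -0.11, Il2ra at -0.11 and Ikzf2 at -0.085. With 1 sample left out, values in the spleen relative to T cell receptor genes ran from -0.24 to 0.0010 (Foxp3), -0.19 to 0.062 (Folr4), -0.31 to 0.065 (Tnfrsf4), -0.035 to 0.33 (Il2ra) and -0.016 to 0.20 (Ikzf2). In nodes they ran from -0.12 to 0.088 (Tnfrsf4) and -0.24 to 0.053 (Il2ra), between tissues of ampicillin mice from -0.024 to 0.12 (Ctla4) and -0.31 to 0.075 (Il2ra), and in the difference of effects from -0.059 to 0.37 (Il2ra).

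Samples of different groups share the numbers 1 to 3, but the labels name different mice, so the samples were treated as unpaired. Deviations of same-numbered samples correlated from -0.35 to 0.24, which with 3 samples a group cannot decide whether they were paired. With the replicate number as a block, 2 members were called in the spleen (Foxp3 -0.64, adjusted p = 0.0541, edgeR, lost), and the other counts stayed as they were. Across the members' single values with 1 sample left out, 613 kept direction and side of the threshold, 17 lost a call, 4 gained one and 14 changed sign. Under the other alternatives these numbers were 483, 20, 12 and 19.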
